A study of Mus musculus with 6 samples.

Results

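The nuclear-encoded subunits of the oxidative phosphorylation complexes were examined in mouse haematopoietic cells of bone marrow origin that had been transformed with the fusion oncogene MLL-AF9. Members were taken from the deposited array table by gene symbol, as the Nduf subunits of complex I, Sdha to Sdhd of complex II, the Uqcr subunits of complex III, symbols starting with Cox4 to Cox8 for complex IV, and the Atp5 genes of complex V. This gave 105 probe sets for 84 genes, out of 25123 probe sets with a gene symbol and 28853 in all. Complex I held 40 probe sets of 37 genes, complex II 4 of 4, complex III 10 of 7, complex IV 24 of 19 and complex V 27 of 17. A member is thus a probe set, and 14 genes had several. By their current names Cox4nb (Emc8), Atp5s (Dmac2l) and Atp5sl (Dmac2) are not subunits, but the symbol rule takes them in.

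All 6 RNA samples came from c-kit+ bone marrow cells that carried MLL-AF9. Cells of the control group (3 arrays, labelled pMIG) received pMIG alone, an empty retroviral vector with a GFP marker, and those of the other group (3 arrays, labelled pMIG-TGIF1) received the same vector with TGIF1, a transcriptional corepressor of the TALE homeodomain class. Cells were sorted for GFP 3 days after transduction and harvested 1 day later, with 300 ng of RNA amplified per sample. The number of donor mice, any clonal selection and the animals' strain and age are not given in the sources used here, nor is it stated that replicates were separate cultures, so the p-values here reflect the scatter among these arrays, which may be technical. The comparison bears on the effect of TGIF1 in MLL-rearranged leukaemia cells, the subject of the series.

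The respiratory chain passes electrons from NADH (complex I) and succinate (complex II) through ubiquinone to complex III, and from there through cytochrome c to complex IV, which reduces oxygen. Complexes I, III and IV pump protons across the inner mitochondrial membrane, and complex V, the ATP synthase, uses the gradient to make ATP. Most subunits are encoded in the nucleus and a few core ones in mitochondrial DNA, and myeloid leukaemia cells are known to draw on this pathway for energy.

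The labels were checked first against Tgif1 itself. Its intensities, on a linear scale, were 319.6, 376 and 408 with the empty vector and 239.1, 239.1 and 258 with the label pMIG-TGIF1. The signal was thus 1.49-fold lower in the arrays labelled as carrying the TGIF1 vector (log2 difference -0.58 ± 0.11 SE, limma adjusted p = 0.00286), which goes against the label. Whether its probes can read the vector's transcript is not given in the sources used here, so every direction below rests on the labels alone. Of 10 myeloid progenitor markers, 9 lay in the brighter 50% of the array, with Ptprc, the pan-leukocyte antigen CD45, called higher under the label pMIG-TGIF1, and Mpo, Cd34 and Kit called lower. The rest were not called, with Cebpa, Csf1r, Ctsg and Itgam above 0 and Elane and Spi1 below. Summed intensities of the 10 overlapped (19310 to 20490 in pMIG arrays, 19970 to 21380 in pMIG-TGIF1 arrays). Without Elane they were apart (10784.5 to 11304.8 against 12047.8 to 12837). Marker lists of other lineages were mostly dim, but their summed intensities did not overlap for erythroid markers (323 to 335 in pMIG arrays, 350.0 to 403 in pMIG-TGIF1 arrays, 3 of 9 called higher) and lymphoid markers (582 to 646 against 744 to 805, 2 of 10 called higher). The lymphoid separation rests on 1 gene, as without Nkg7 the sums overlap (310.3 to 319 against 316 to 352). Without Hba-a1 the erythroid sums overlap narrowly (253 to 263.1 against 262.7 to 315), and the 3 called there are the globin genes Hba-a1, Hbb-b1 and Hbb-b2. The sums of the 10 stroma and muscle markers overlapped (2011 to 2291 against 1859 to 2054). Without Acta2 they were apart (1837 to 2085 against 1454 to 1575), and without Pecam1 they were apart the other way (625 to 695 against 845 to 932). Of these 10, Acta2 (1.11) and Des (0.44) were called higher, Pecam1 (-0.50) was called lower, and the other 7 were not called, among them the muscle genes Myh6 (-0.11) and Ckm (0.09). The part of other cells in the results below was not tested, and in bulk RNA fewer cells of a type and less RNA per cell cannot be told apart.

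Most subunits differed little between the groups. At a limma adjusted p under 0.05, the threshold for a call, 10 of 105 members were called (9.52%), of which 4 were higher under the label pMIG-TGIF1 and 6 were lower. Over all probe sets with a symbol 24.7% were called, 11.5% higher and 13.2% lower. Subunits are abundant transcripts, and 100 of the 105 lay in the brighter 50% of the table, where 40.9% of all probe sets were called against 10 of these 100. The 3 arrays of one group lay wholly above or below those of the other for 31 members (29.5%), against 38.4% of all probe sets. Only Ndufb10 differed by 1.5-fold or more, while 12.4% of all probe sets did. The 95% confidence interval of the difference lay within 1.5-fold in either direction for 91 members (86.7%), against 73.5% of all probe sets. The median spread within a group was close to that of the whole table, with an SD on the log2 scale of 0.10 in pMIG arrays and 0.11 in pMIG-TGIF1 arrays, against 0.10 and 0.13. In the brighter 50% the median size of the log2 difference was 0.14 among members and 0.26 among all probe sets. The split by direction depends on scaling: 5 were called higher and 4 lower when quantile normalization was repeated, and 1 higher and 16 lower when each array was centred on its median.

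**Figure D1:**
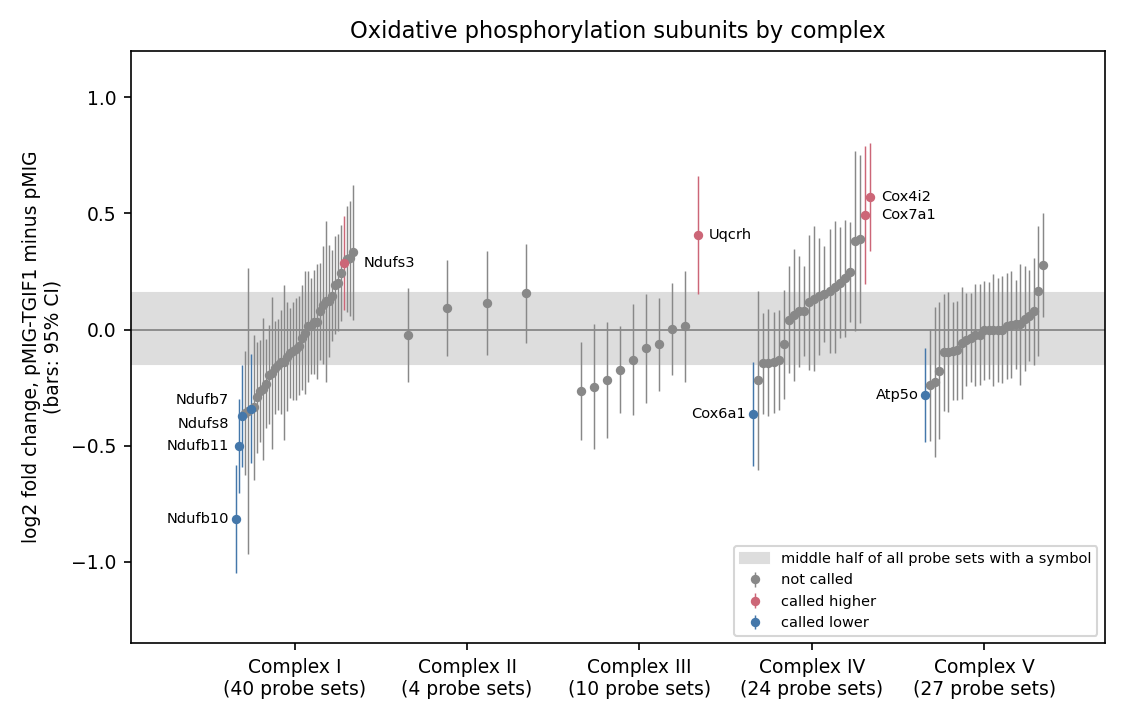
Log2 fold change of each of the 105 member probe sets (arrays labelled pMIG-TGIF1 minus pMIG, vertical axis) with its 95% confidence interval from limma, grouped by complex and sorted within it. The 4 members called higher are red, the 6 called lower blue, the rest grey, and the grey band spans the range between the quartiles of all 25123 probe sets with a symbol; most members lie in or near the band, and Ndufb10 is the lowest.

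The called members were spread over complexes I, III, IV and V. Complex I had 1 called higher and 4 lower, complex III 1 higher, complex IV 2 higher and 1 lower, and complex V 1 lower, while none of the 4 in complex II was called. Median log2 differences were -0.09 for complex I, 0.10 for complex II, -0.11 for complex III, 0.12 for complex IV and -0.0038 for complex V, against 0.01 over all probe sets with a symbol. In complex I 24 of 40 members lay below 0, and in complex IV 17 of 24 lay above 0. The 12561 brighter probe sets of the table include 39 of these 40 and 20 of these 24. Among the 12561, 7095 lay below 0 and 5466 above, with a median of -0.06. Complex I thus leaned much as the brighter probe sets did, and complex IV leaned the other way. Whether either complex differed from them was not tested. In complex V 18 of 27 lay below 0, but 12 of 27 with quantile normalization repeated. These medians move with scaling: centring, which shifts the median of all probe sets from 0.01 to -0.10, gave medians of -0.20, -0.00497, -0.21, 0.017 and -0.11 for complexes I to V.

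**Figure D2:**
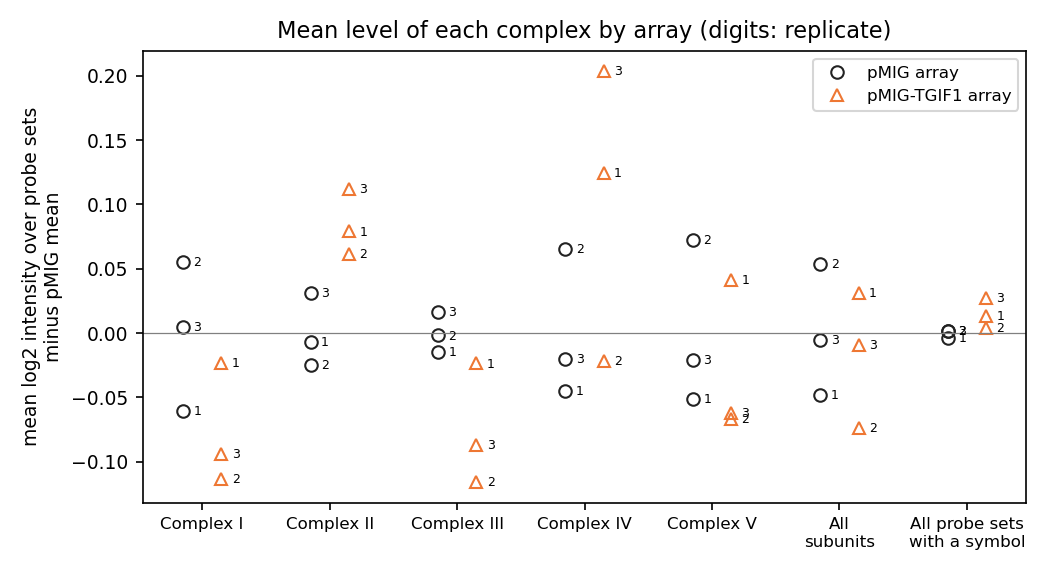
Mean log2 intensity over the probe sets of each complex in each array, minus the mean of the 3 pMIG arrays. Circles are pMIG arrays, triangles pMIG-TGIF1 arrays and digits the replicate; in complex II all 3 triangles lie above the circles, in complex III all lie below them, and in the other complexes the groups overlap.

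Array by array, complex IV stood between -0.05 and 0.07 around the pMIG mean in the control arrays, and at 0.12, -0.02 and 0.20 in the arrays labelled pMIG-TGIF1. Replicate 2 of the latter fell inside the control range. Complex I stood at -0.02, -0.11 and -0.09 in the arrays labelled pMIG-TGIF1, with pMIG arrays between -0.06 and 0.06. These means run over unlike probe sets and are given as a description.

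Promoter sequences from RefSeq (build GRCm38.p6, 250 bases before to 50 after the gene's start) were matched for 68 of the 84 genes. Both of the most lowered subunits, a subunit with a match to the palindromic NRF1 motif, and both raised subunits with an ETS motif are shown, 5′ to 3′ on the gene's strand, with motif matches in capitals.
Ndufb10, chr17:24724374-24724673, minus strand: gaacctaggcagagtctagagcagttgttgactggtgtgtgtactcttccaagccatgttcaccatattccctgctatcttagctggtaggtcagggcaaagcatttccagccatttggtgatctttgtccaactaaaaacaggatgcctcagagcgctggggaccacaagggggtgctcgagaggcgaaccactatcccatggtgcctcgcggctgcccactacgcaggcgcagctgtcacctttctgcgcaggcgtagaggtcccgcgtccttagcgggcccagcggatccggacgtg
Ndufb11, chrX:20617570-20617869, minus strand: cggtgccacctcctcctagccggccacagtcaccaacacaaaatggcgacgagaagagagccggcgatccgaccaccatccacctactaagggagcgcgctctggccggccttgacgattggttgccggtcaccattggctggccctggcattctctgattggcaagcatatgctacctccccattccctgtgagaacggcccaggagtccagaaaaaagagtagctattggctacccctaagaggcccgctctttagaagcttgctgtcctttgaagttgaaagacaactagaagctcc
Cox6a1, chr5:115348909-115349208, minus strand: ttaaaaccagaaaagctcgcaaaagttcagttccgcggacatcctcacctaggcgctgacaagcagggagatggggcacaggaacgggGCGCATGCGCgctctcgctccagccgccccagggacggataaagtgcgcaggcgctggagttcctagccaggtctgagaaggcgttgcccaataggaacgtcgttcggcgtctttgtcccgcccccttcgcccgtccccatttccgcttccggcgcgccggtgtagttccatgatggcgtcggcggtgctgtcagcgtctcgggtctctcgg
Ndufs3, chr2:90904672-90904971, minus strand: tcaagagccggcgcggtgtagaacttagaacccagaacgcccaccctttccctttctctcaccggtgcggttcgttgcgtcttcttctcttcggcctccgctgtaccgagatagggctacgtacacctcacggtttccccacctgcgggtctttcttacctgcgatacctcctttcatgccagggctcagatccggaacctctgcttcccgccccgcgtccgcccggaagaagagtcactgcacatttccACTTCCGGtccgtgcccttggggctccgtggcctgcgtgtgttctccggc
Uqcrh, chr4:116075021-116075320, minus strand: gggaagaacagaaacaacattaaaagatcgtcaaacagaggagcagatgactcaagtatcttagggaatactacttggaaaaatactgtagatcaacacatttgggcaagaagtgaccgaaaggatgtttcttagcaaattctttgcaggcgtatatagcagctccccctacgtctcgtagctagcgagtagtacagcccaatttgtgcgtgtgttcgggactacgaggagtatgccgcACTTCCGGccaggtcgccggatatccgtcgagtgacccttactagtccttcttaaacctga
The motifs searched were GCGCATGCG (bound by nuclear respiratory factor 1, NRF1), CCGGAAGT (ETS factors, among them GABP), AAGATGGCG (YY1) and CACGTG (the E-box, bound by MYC and others), each as an exact match on either strand. The NRF1 and YY1 motifs were each found in 8 of the 68 member promoters (11.8%), against 1.95% and 1.64% of 27025 genes with a promoter in the table. The ETS motif was in 5 (7.35%, against 4.31%) and the E-box in 7 (10.3%, against 8.09%), 5 of these among the 16 genes of complex V with a promoter. At least 1 of the first 3 motifs stood in 20 member promoters (29.4%), against 7.48% of all genes. Among the 6 members called lower, Cox6a1 alone had any of the 4 motifs, and the sequences of Ndufb10 and Ndufb11 above hold none in this window. Of the 3 members called higher that had a promoter, Ndufs3 and Uqcrh hold the ETS motif. Ndufs3 was called in only 1 of its 2 probe sets, and whether that probe set reads the locus shown was not checked. A match describes the sequence and shows neither binding nor a cause.

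In complex I, the NADH dehydrogenase that oxidises NADH at the tip of its peripheral arm, the 2 smallest p-values belonged to Ndufb10 and Ndufb11, accessory subunits of the membrane arm. Ndufb10 had intensities of 195, 217 and 175 with the empty vector against 110.1, 106 and 117 under the label pMIG-TGIF1 (in this order below). All 3 of the latter were below all 3 controls, and the level was 1.76-fold lower (log2 difference -0.81 ± 0.11 SE, 95% CI -1.05 to -0.58, limma adjusted p = 0.000267). Ndufb11, encoded on the X chromosome, read 1425, 1505 and 1494 against 1106, 987 and 1036. Its groups were also apart, with a 1.42-fold lower level (log2 difference -0.50 ± 0.09 SE, adjusted p = 0.00227). Ndufb7 read 1717, 1796 and 1834 against 1572, 1423 and 1245, a 1.27-fold lower level without overlap (adjusted p = 0.0384). Ndufb7's call was lost on leaving out any pMIG array (adjusted p = 0.0717, 0.102 and 0.122 without replicates 1, 2 and 3) or pMIG-TGIF1 replicate 2 (0.0739) or 3 (0.111). It was lost too with quantile normalization repeated (0.0661), with the replicate number as a block (0.0733) and without moderation of the variance (0.113).

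The Ndufb family as a whole held these 3 calls among 11 probe sets. This share, 27.3%, is near the 24.7% of all probe sets and below the 40.9% of the brighter 50%, where all 11 lie. In the family 9 of the 11 lay below 0, with a median of -0.23. With quantile normalization repeated 8 of the 11 lay below 0 and with centring all 11. The 2 above 0 were Ndufb8 (0.10) and Ndufb9 (0.08), named after their values were seen. None of the 14 Ndufa members was called, 4 having an unadjusted p under 0.05, with values from -0.36 to 0.33 on the log2 scale and 7 on each side of 0. The highest log2 difference in complex I was that of Ndufa6 (737, 813 and 699 against 976, 778 and 1102, log2 difference 0.33 ± 0.13 SE), where pMIG-TGIF1 replicate 2 lay among the controls and adjusted p was 0.0975. None of the 3 Ndufc and 3 Ndufv members was called. The assignment of Ndufa4 to complex I is historical, since its product is now counted with complex IV. It read 1421, 1674 and 1525 against 1377, 1358 and 967 (-0.33 ± 0.14 SE, adjusted p = 0.120), and its paralogue Ndufa4l2 was dim, with 0.03 ± 0.11 SE.

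The core subunits of complex I, those shared with the bacterial enzyme, among them the carriers of its flavin and iron-sulphur clusters, moved in both directions. Among their 8 probe sets 1 was called higher and 1 lower, a share near that of all probe sets. Ndufs8, which holds 4Fe-4S clusters next to the membrane arm, read 751, 847 and 896 against 657, 651 and 615. The groups did not overlap, and the level was 1.29-fold lower (log2 difference -0.37 ± 0.10 SE, adjusted p = 0.0184), a call lost without pMIG replicate 2 (0.0639) or 3 (0.0863) and without moderation of the variance (0.0627). Ndufs3, a core subunit of the peripheral arm, read 1525, 1662 and 1542 against 2029, 1857 and 1886. It was 1.22-fold higher without overlap (0.29 ± 0.09 SE, adjusted p = 0.0425), but the call was lost on leaving out any one of the 6 arrays (adjusted p from 0.0592 to 0.130). Centring (0.18, adjusted p = 0.196) and the replicate number as a block (adjusted p = 0.0983) ended it too. The second Ndufs3 probe set gave a like value, 0.31 ± 0.11 SE, with adjusted p = 0.0735. Ndufs6, a small accessory subunit, was singled out after its values were seen: it read 1069, 1117 and 1133 against 1268, 1056 and 489. pMIG-TGIF1 replicate 3 lay far below the other 5 arrays, and the difference was not called (-0.35 ± 0.28 SE, adjusted p = 0.440).

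**Figure D3:**
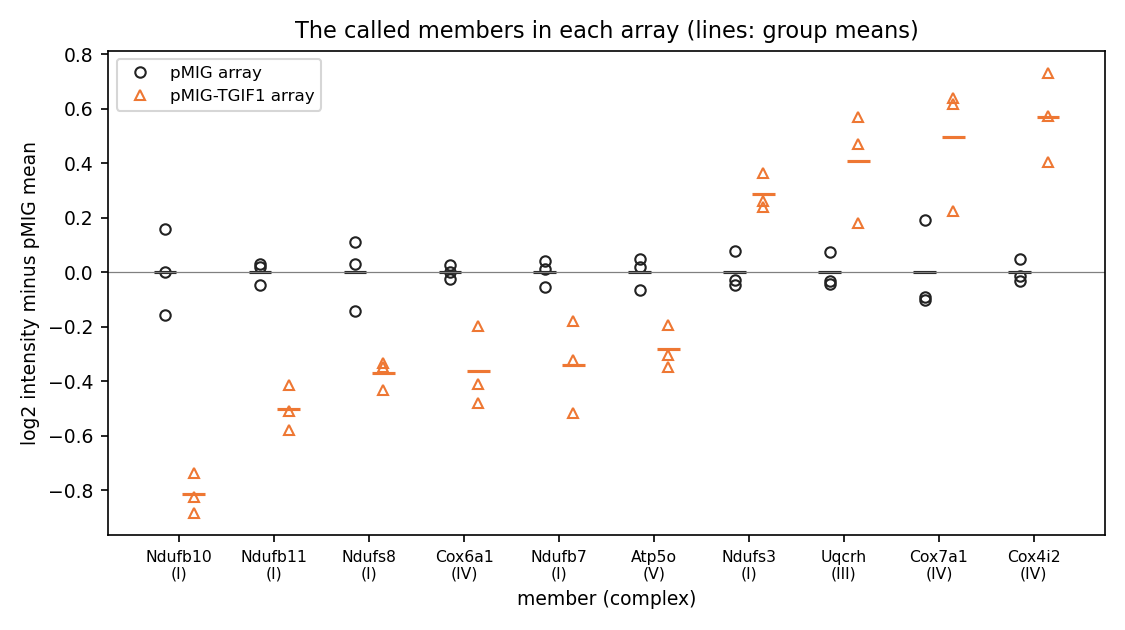
Log2 intensity of the 10 called members in each array, minus the mean of the 3 pMIG arrays; circles are pMIG arrays, triangles pMIG-TGIF1 arrays and lines group means. In all 10 the groups do not overlap, and the spread among triangles is widest for Cox7a1 and Uqcrh.

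Complex II, succinate dehydrogenase, is the one complex that also serves in the citric acid cycle and is encoded wholly in the nucleus. Sdha, its flavoprotein, read 2218, 2063 and 2378 against 2403, 2590 and 2213 (0.11 ± 0.10 SE). Sdhb, the iron-sulphur subunit, read 528, 526 and 514 against 520.2, 555 and 599 (0.09 ± 0.09 SE). The groups overlapped for both. Of the membrane anchors, Sdhc stood at 0.16 ± 0.10 SE and Sdhd at -0.02 ± 0.09 SE. None of the 4 had an unadjusted p under 0.05, the limma adjusted p-values lay between 0.306 and 0.897, and all 4 confidence intervals lay within 1.5-fold.

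In complex III, which moves electrons from ubiquinol to cytochrome c, 1 of 10 members was called. Uqcrh, the hinge protein at the cytochrome c1 side, read 2262, 2452 and 2279 against 3229, 2639 and 3453. All 3 arrays labelled pMIG-TGIF1 were above the controls, and the mean level was 1.33-fold higher (log2 difference 0.41 ± 0.11 SE, adjusted p = 0.0241). The call was lost if control replicate 1 (0.0810) or 3 (0.0832) was left out, as it was for replicate 1 or 3 of the other group (0.0701 each). It was also lost with centring (0.30, adjusted p = 0.0722) and without moderation of the variance (adjusted p = 0.116). The other 6 probe sets of small subunits lay below 0, also under both other scalings. For Uqcrb, which takes part in ubiquinone binding, 3 probe sets gave -0.27 ± 0.10 SE (adjusted p = 0.0695), -0.17 ± 0.08 SE and -0.06 ± 0.09 SE. The first read 2681, 3045 and 2733 against 2448, 2224 and 2362, without overlap but not called. The current symbol of Uqcr is Uqcr11, and its 2 probe sets stood at -0.25 ± 0.12 SE and -0.22 ± 0.11 SE. The Rieske iron-sulphur protein Uqcrfs1 (0.01) and the core proteins Uqcrc1 (-0.13) and Uqcrc2 (0.0009) were not called.

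Complex IV, cytochrome c oxidase, has several subunits with a widely expressed form and a form restricted to certain tissues or conditions, and these were the members it was led by. Cox4i2, the form of subunit 4 known from lung and from low oxygen, read 89.3, 94.5 and 90.5 against 152, 121 and 136. No array overlapped, and the level was 1.48-fold higher (95% CI 1.26 to 1.74, log2 difference 0.57 ± 0.10 SE, adjusted p = 0.00240). The widely expressed Cox4i1 stood at 0.15 ± 0.09 SE (adjusted p = 0.299). By mean intensity Cox4i2 lay at percentile 54.1 of all probe sets with a symbol and Cox7a1 at 51.4, against 96.0 for Cox4i1. The 2 called tissue forms were thus near the middle of the table. Cox7a1, the heart and muscle form of subunit 7a, read 72.8, 72.2 and 88.6 against 121, 90.5 and 119. Its groups were just apart, by 1.41-fold (0.49 ± 0.13 SE, adjusted p = 0.0203), and the call was lost if control replicate 1 (0.0793) or 2 (0.0804) was left out, as it was for replicate 1 (0.0685) or 3 (0.0564) of the other group. Quantile normalization repeated (adjusted p = 0.0503), centring (0.0513) and no moderation of the variance (0.144) ended it too. Its partner Cox7a2 stood at -0.15 ± 0.10 SE, and both probe sets of Cox7a2l, whose product helps form supercomplexes, at 0.22 ± 0.11 SE and 0.18 ± 0.13 SE.

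The widely expressed form of subunit 6a went the other way. Cox6a1 read 1667, 1609 and 1636 against 1233, 1172 and 1427, without overlap and 1.29-fold lower (log2 difference -0.36 ± 0.10 SE, adjusted p = 0.0225). The call held without pMIG-TGIF1 replicate 3 but was lost on leaving out any other array (adjusted p from 0.0557 to 0.0766) and without moderation of the variance (0.0740). Its heart and muscle partner Cox6a2 read 92.5, 95.6 and 85.0 against 125, 86.9 and 153, where replicate 2 lay among the controls (0.38 ± 0.17 SE, adjusted p = 0.154). Whether Cox6a1 and Cox6a2, or Cox7a1 and Cox7a2, differed from each other was not tested. All 7 probe sets of tissue-restricted forms lay above 0, with 2 called, a share near that of all probe sets, and a median of 0.38, and 4 of the 7 were in the dimmer 50% of the table. With quantile normalization repeated or with centring 5 of the 7 lay above 0 and 1 was called. Of the 4 dim ones, Cox7b2 stood at 0.39 ± 0.16 SE (adjusted p = 0.118), Cox6b2 at 0.13 ± 0.14 SE, Cox8b at 0.06 ± 0.13 SE and Cox8c at 0.04 ± 0.10 SE. Their widely expressed partners stood at 0.08 and -0.06 for the 2 probe sets of Cox7b, 0.14 for Cox6b1 and 0.08 for Cox8a.

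**Figure D4:**
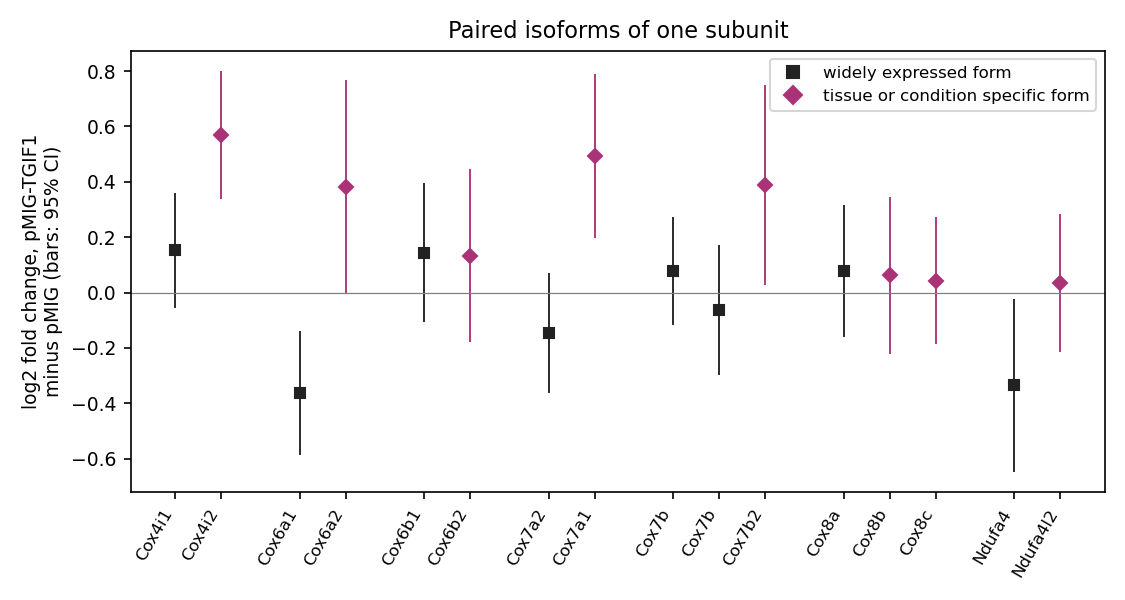
Log2 fold change (arrays labelled pMIG-TGIF1 minus pMIG) with 95% confidence interval for widely expressed forms (squares) and tissue or condition specific forms (diamonds) of the same subunit, 1 symbol per probe set. Cox4i2 and Cox7a1 were called higher and Cox6a1 lower; among the tissue or condition specific forms the intervals of Cox6a2, Cox6b2, Cox8b, Cox8c and Ndufa4l2 span 0.

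Of the remaining complex IV members, Cox6c, a small subunit of the membrane part, had the smallest p (5976, 6956 and 6543 against 8079, 7321 and 7677, 0.25 ± 0.10 SE, adjusted p = 0.0959). Its groups did not overlap, but this probe set had no RefSeq match by accession. The probe set matched to Cox6c stood at 0.20 ± 0.11 SE with overlapping groups (adjusted p = 0.2275). Cox4nb, which the symbol rule includes, is now named Emc8, a subunit of the endoplasmic reticulum membrane complex and no part of complex IV. It was not called (-0.14 ± 0.10 SE), and its removal leaves 10 calls among the rest.

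Complex V had the smallest median size of difference among the 5 complexes, 0.05 on the log2 scale, and the confidence interval lay within 1.5-fold for all 27 probe sets. The F1 head and central stalk, where ATP is made, had 5 probe sets between -0.10 and 0.06, none called and none with an unadjusted p under 0.05. Atp5a1, the alpha subunit, read 5085, 5262 and 5398 against 5378, 5399 and 5207. Atp5b, the catalytic beta subunit, read 5460, 4454 and 5172 against 4668, 5185 and 4243. Both overlapped between groups, at 0.02 ± 0.09 SE and -0.10 ± 0.11 SE, and the intervals of -0.17 to 0.21 and -0.35 to 0.15 give the range of differences that these arrays allow. The one call was Atp5o, the oligomycin-sensitivity protein that joins the head to the peripheral stalk. It read 721, 737 and 681 against 623, 560 and 577, without overlap and 1.22-fold lower (-0.28 ± 0.09 SE, adjusted p = 0.0473). Atp5o was called in 7 of 17 alternative settings, and leaving out any array but pMIG-TGIF1 replicate 1 ended the call (adjusted p from 0.0789 to 0.142). So did quantile normalization repeated (0.150), array weights (0.0529), no moderation of the variance (0.0547), the replicate number as a block (0.0992) and all probe sets in the fit (0.0518). Atp5f1 (now Atp5pb), the b subunit of the same stalk, read 1203, 1471 and 1421 against 1199, 1203 and 1058 (-0.24 ± 0.11 SE, adjusted p = 0.148).

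The proton-carrying c ring is made of 1 protein encoded by 3 genes. Atp5g1 stood at -0.23 ± 0.15 SE and -0.18 ± 0.13 SE, Atp5g2 at -0.09, -0.10 and 0.02 in its 3 probe sets, and Atp5g3 at -0.0024 ± 0.11 SE. All 3 genes gave overlapping groups. Atp5sl (now Dmac2), a factor named for complex V but known for complex I assembly, had the highest log2 difference under an Atp5 symbol. It read 259, 256 and 276 against 301, 357 and 303, without overlap but not called (0.28 ± 0.10 SE, adjusted p = 0.0726). Atp5s (now Dmac2l) stood at -0.02 ± 0.10 SE.

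Genes with several probe sets gave a check within the arrays, although near-identical copies such as processed pseudogenes can share probes and the probe sets are not independent. Of the 14 such genes 11 had the same sign in all their probe sets, and Atp5g2, Atp5l and Cox7b did not. A shared sign did not always mean a like pattern over the 6 arrays. The lowest correlation between probe sets was -0.14 for Cox5b, -0.10 for Atp5h and 0.31 for Uqcrb, and 0.83 or more for the others with a shared sign. The 6 probe sets of Atp5l ranged from -0.0038 to 0.17. Ndufs3 was the single gene of the 14 with a call, in 1 of its 2 probe sets.

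Genes of the pathway other than subunits by symbol were counted in the same fit. Of 100 measured genes in 10 lists, 43 were called, 6 higher and 37 lower, and 97 of the 100 lay in the brighter 50% of the table. The count in both directions together is thus near the 40.9% called there. By direction the 100 genes lean further to lower calls: of the 12561 probe sets there, 3031 were called lower and 2105 higher. The lists were chosen by function, and no test compares them with the subunits. Assembly factors, which build the complexes without being part of them, had 4 called higher and 16 lower among 36 measured, with a median of -0.28. Of the 36, 34 lay in the brighter 50%, where 40.9% of all probe sets were called. For complex I these were 2 and 7 of 12, for complex II 0 and 2 of 3, for complex III 1 and 2 of 4, for complex IV 1 and 4 of 13 and for complex V 0 and 1 of 4. Ecsit, a complex I assembly and signalling protein, read 392, 420.1 and 436 against 139.9, 159 and 131. It was 2.92-fold lower with no overlap (-1.54 ± 0.10 SE, adjusted p = 4.0e-06). Ndufaf2, which acts late in complex I assembly, was 1.65-fold lower (adjusted p = 0.000312). Bcs1l, which inserts the Rieske protein into complex III, read 266, 322 and 296 against 145, 171 and 185 (1.77-fold lower, adjusted p = 0.000546). Uqcc1, an assembly factor for cytochrome b, was 1.57-fold lower. Sco1, a copper chaperone of complex IV, fell by 0.56 on the log2 scale, as did Cox10, which acts in making its haem. Atpaf2, an F1 assembly factor, was 1.52-fold lower, and Sdhaf1 and Sdhaf3, for the iron-sulphur subunit of complex II, were 1.41- and 1.32-fold lower.

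**Figure D5:**
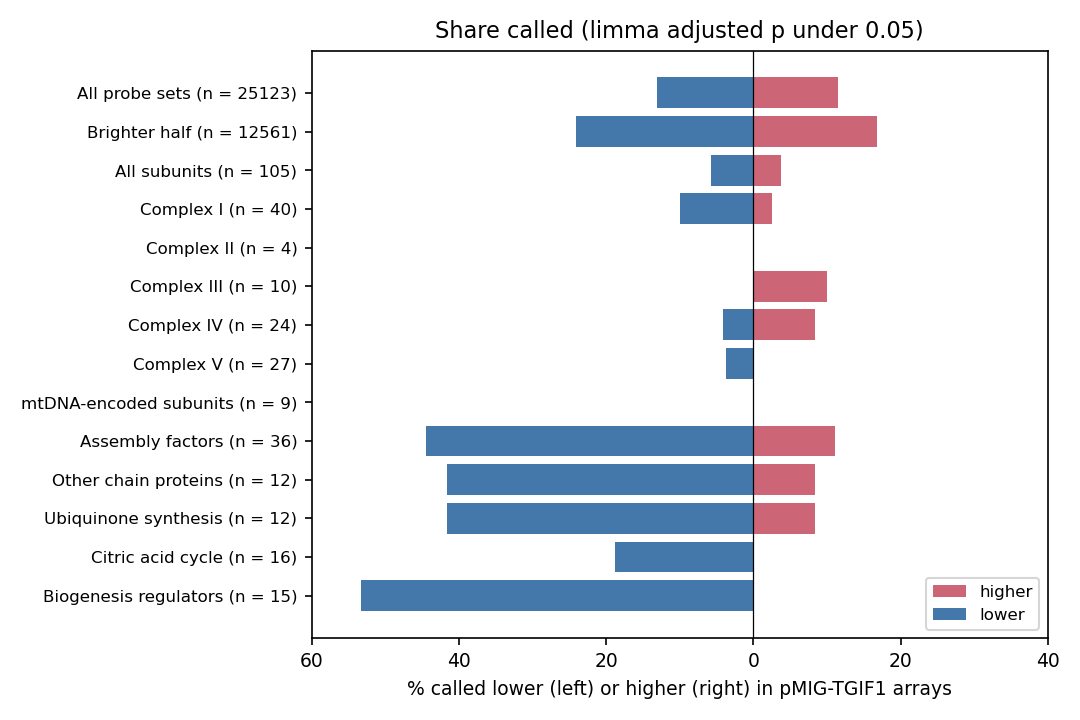
Share of probe sets called higher (right, red) or lower (left, blue) at a limma adjusted p under 0.05, in percent, for all probe sets, the brighter 50%, the subunits by complex and the other gene lists, with 1 probe set per gene in the latter. Subunits have short bars, and assembly factors and biogenesis regulators longer bars on the lower side; the bar to read both against is that of the brighter 50% of the table, where most of these genes lie.

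Mobile carriers, inner membrane transporters and enzymes that feed ubiquinone held 1 gene called higher and 5 lower among 12. All 12 lay in the brighter 50%, as did all genes of the lists below but 1 biogenesis regulator. The share to read these counts against is thus 40.9% for both directions together. Slc25a4, the heart and muscle ADP/ATP carrier, read 1344, 1512 and 1553 against 2434, 2565 and 2772. Its level was 1.76-fold higher without overlap (adjusted p = 0.000185). Dhodh, which feeds electrons to ubiquinone during pyrimidine synthesis, was 1.70-fold lower (adjusted p = 0.000291). The widely expressed carrier Slc25a5 (5719, 6013 and 5681 against 4234, 4067 and 3867) was 1.43-fold lower, and Cycs, cytochrome c (3158, 3114 and 3120 against 2080, 2173 and 1950), was 1.51-fold lower. Slc25a5, Cycs and Cyc1 were named after their values were seen. Slc25a5 and Cycs have 3 probe sets each, of which only the brightest is given, and the others were not compared. Cyc1, cytochrome c1 of complex III, which the symbol rule does not take in, was not called (-0.15 ± 0.11 SE, adjusted p = 0.415).

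Ubiquinone synthesis had 1 gene called higher and 5 lower among 12, led by the methyltransferase Coq5 (1.77-fold lower, adjusted p = 0.00115) and Pdss1, which makes the side chain (1.65-fold lower). The citric acid cycle had 3 of 16 called, all lower, among them Idh3a of NAD-dependent isocitrate dehydrogenase (1889, 1934 and 2187 against 1172, 1356 and 888, 1.78-fold lower, adjusted p = 0.00186) and Ogdh of oxoglutarate dehydrogenase (1.40-fold lower). Of 15 regulators of mitochondrial biogenesis 8 were called, all lower, and the median over the 15 was -0.34. Tfb1m, which methylates mitochondrial ribosomal RNA, read 256, 277 and 268 against 147, 164 and 138 (1.79-fold lower, adjusted p = 0.000145). Nrf1, the factor whose motif was searched above, read 374, 316 and 354 against 193, 229 and 198. It was 1.69-fold lower (adjusted p = 0.000497), while 8 member genes with its motif (Cox6a1 called lower, 7 not called) had values from -0.36 to 0.17 in the probe set with the smallest p. Ppargc1a, the coactivator PGC-1 alpha, stood at -0.01 ± 0.11 SE. None of the 9 measured subunits encoded in mitochondrial DNA was called by limma, 1 had an unadjusted p under 0.05 and the median was 0.05, turning to -0.06 with centring and -0.00079 with quantile normalization repeated. Leaving out pMIG replicate 1 gave 1 call higher, and leaving out pMIG-TGIF1 replicate 2 gave 1 call lower. Their summed intensity was 86590 to 90920 in pMIG arrays and 85630 to 95260 in arrays labelled pMIG-TGIF1.

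Several members start back to back with another gene. The search covered only the 68 of 84 member genes with a matched RefSeq promoter (GRCm38.p6), so pairs of the other genes are missing. Among the genes searched, 16 members had such a neighbour within 1000 bases that was also measured. The neighbour was called in at least 1 of its probe sets for 5 of the 16, 4 lower and 1 higher. The share over all probe sets was 24.7%, which counts single probe sets and so is not a like measure. Ndufs3 is paired in this way with Kbtbd4, whose probe set was lower (-0.44 ± 0.11 SE, adjusted p = 0.0116). Ndufs3 itself was called higher in only 1 of its 2 probe sets, and whether each of them reads this locus was not checked. Uqcrh is paired with Lrrc41 (0.13 ± 0.09 SE, adjusted p = 0.365). The neighbours of Atp5f1 (Wdr77, -0.46), Ndufb3 (Fam126b, -0.46) and Ndufb5 (Mrpl47, -0.69 in 1 of its 2 probe sets) were called lower and that of Ndufa11 (Vmac, 0.27) higher. Whether a member and its neighbour differed from each other was not tested.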

How the data were processed

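The 6 samples were hybridised to Affymetrix Mouse Gene 1.0 ST arrays, 3 labelled pMIG and 3 labelled pMIG-TGIF1, with groups and replicate numbers taken from the sample titles. The deposited tables give a linear intensity per probe set, which the authors obtained with Partek and RMA, per the submitters' processing notes, without versions or settings. The deposited p-value and signed fold change of each probe set are the authors' own and were not used for calls. The array annotation's genome build is not given in the sources used here. Both deposited tables hold the same intensities (largest difference 0), and no column of per-sample values was left unmatched.

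Log2 intensities of all 25123 probe sets with a symbol were fitted with limma 3.58.1 (lmFit and eBayes, R 4.3.3), without covariates, and p-values were adjusted over all of them by the Benjamini-Hochberg method. A call is an adjusted p under 0.05. Another 3730 had no symbol and did not enter the fit. An exact permutation test of 3 arrays against 3 cannot give a two-sided p under 0.1, so none is printed. The number of arrays limits the precision. The fit was tested on simulated data.

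Members and gene lists were chosen with earlier results of these data known. The genes named are, in each complex, the 4 members with the smallest p, the largest rise and the largest fall, both partners of paired isoforms, up to 2 genes with the smallest p in each other list, and Tgif1. Genes named outside this rule, among them the other called members, the marker genes and the neighbouring genes, were chosen after their values were seen. For a list gene with several probe sets only the 1 with the highest mean log2 intensity was used. Promoters and current symbols came from RefSeq tables (GRCm38.p6), 100 of the 105 members being matched by accession. Those not matched were Ndufa11, Atp5k and 1 probe set each of Cox5b, Cox6c and Cox7c. Alternatives were another normalization, centring, filters on dim probe sets, other variance models, array weights, a replicate block and leaving out each array. The fit was also run with all probe sets, with 1 probe set per gene and on the other deposited table.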

Additional observations from a re-analysis of the deposited data

How the results depend on the processing

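Across 17 alternative settings no member reversed a call. The other deposited table is 1 of the 17, and as it holds the same intensities it repeats the main result by construction. Variance models, the replicate block, filters and other choices of probe sets leave each log2 difference unchanged. A reversal was thus possible only with other scalings, array weights or an array left out. Cox4i2, Ndufb10 and Ndufb11 were called in all 17, Ndufs8 in 14, Cox6a1 and Uqcrh in 11, Cox7a1 in 10, Ndufb7 and Ndufs3 in 9 and Atp5o in 7, while 18 other probe sets were called in some setting and 77 in none. Instead of 10 calls, 6 were made without moderation of the variance, 17 (1 higher, 16 lower) with each array centred on its median, 18 with the dimmest 50% left out and 4 to 9 on leaving out 1 array, when 19.3% to 23.5% of all probe sets were called. Complex I had 8 calls with an intensity trend and robust prior, 11 with centring, 11 with the dimmest 50% left out and 2 to 5 without 1 array. Complex III had 2 calls with the trend and robust prior, 2 with centring, 2 with the dimmest 50% left out and 0 to 1 without 1 array. Complex IV had 1 call without moderation, 1 without its tissue-restricted forms and 1 to 3 without 1 array. Complex V had 0 calls without moderation, 0 with all 28853 probe sets in the fit, 0 with array weights, 2 with centring, 2 with the dimmest 50% left out and 0 to 2 without 1 array. The medians of complexes I to V with centring were -0.20, -0.00497, -0.21, 0.017 and -0.11, that of complex II was 0.15 with quantile normalization repeated, and that of complex III ranged from -0.15 to -0.079 without 1 array. The other pathway genes, tested the same way after seeing the data, had 28 calls without moderation instead of 43, and 35 to 49 in the remaining settings. With the replicate number as a block, 7 members were called, 3 in complex I and 0 in complex V; same-numbered arrays did not deviate together (correlations -0.19, -0.11 and -0.05), so the numbers are not a pairing here. Centring shifts every value by construction, and a filter on dim probe sets changes the number tested; for the other settings the cause was not tested. Signal over background could not be judged from RMA values.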
